A study of Homo sapiens with 8 samples.

Results

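The genes described here are the 49 whose symbol starts with PSMA, PSMB, PSMC, PSMD, PSME, PSMF or PSMG followed by a number, out of 18053 gene names in a genome-wide CRISPR knockout screen. Membership follows the symbol and uses no measured value, although the set was picked with earlier results of these data known. The screen used PC9, a non-small cell lung cancer line driven by a mutant EGFR, made to express the nuclease Cas9 and infected with TKOv3, a pooled library with up to 4 single guide RNAs (sgRNAs) for each human gene. Cells were collected after 72 h in 10 µM erlotinib, after 72 h in 0.1 µM osimertinib, after 72 h in DMSO (untreated) and when drug was added (T0, 0 h), with 2 libraries in each of the 4 groups. Erlotinib and osimertinib both inhibit the EGFR kinase, and cells of all groups, T0 and untreated included, carried Cas9, the guide library and the puromycin selection. Per the study's methods the DMSO cultures were split 1 day into the treatment, and the final harvest of every arm was of live cells. Per the labels the infection was done in duplicate, but the sources do not say whether a replicate number marks the same infection in each group. Another arm of the study, at a higher osimertinib dose, is not covered.

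The proteasome is the main protease of the cytosol and nucleus and degrades proteins that carry ubiquitin chains. Its core particle is a barrel of stacked alpha and beta rings with the catalytic sites inside, and its regulatory particle, built from a base with a ring of ATPases and a lid, recognises, unfolds and deubiquitinates substrates. Dedicated chaperones build the core and the base and then leave, activators such as PSME1 to PSME4 can cap the core in place of the regulatory particle, and some lymphoid, thymic or testicular cells swap core subunits for close paralogues. Nearly all dividing cells need the constitutive subunits, and inhibitors of the core are used as drugs against multiple myeloma.

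Of the 49 genes, 31 encode constitutive subunits of the core or regulatory particle, 17 encode assembly chaperones, activators, an inhibitor or tissue-restricted subunits, and 1, PSMC3IP, shares only the letters of the name and encodes a meiotic recombination factor. The 8 libraries held 32096281 to 39200466 reads, and 190 of the 196 guides against these genes passed the filter on low counts, with 4 guides for 44 genes, 3 for PSMD6, PSMD10, PSMD12 and PSMD13, and only 2 for PSMA7. All 49 genes were tested, among 17762 in all. The change of a gene (L2FC) is the median over its guides of the log2 fold change of normalised read counts, less the median of the non-targeting guides, which match no human site. A gene was called where its L2FC lay outside draws of as many non-targeting guides at an adjusted p under 0.05 over all genes tested. This test sets a gene against the spread between guides, not between cultures, and guides against the same gene are not replicates of a condition. Single guides were tested against the spread between libraries with edgeR's quasi-likelihood F-test, and where p-values rest on libraries they measure only the spread between these libraries, part of which may be technical. Levels are given for each library as a percent of the mean T0 level, as the median over a gene's guides. Because the L2FC is a median of guide differences, it need not equal the ratio of those median levels.

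Guides against the constitutive subunits held few reads already at T0, which was taken after selection and recovery. Their 124 guides had a median of 226 and 238 reads per guide in the T0 libraries, against 518 and 549 for all targeting guides and 543 and 592 for non-targeting guides. The alpha ring stood lowest at T0, with medians of 196 and 206 reads, while guides against the tissue-restricted subunits had 559 and 606 reads. Loss of cells before T0 and a smaller share of these guides in the library as delivered cannot be told apart here, since no earlier sample was analysed. The changes below therefore cover only the 72 h after T0. At the endpoint the constitutive guides had medians of 129 and 132 reads in erlotinib, 139 and 144 in osimertinib and 152 and 159 in untreated libraries, so each guide's value rests on few reads. PCR copies were not marked with molecular identifiers, and read depth bounds counting error only.

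Gene essentiality, the change over 72 h without drug (untreated vs T0), showed that knockouts of all 31 constitutive subunits fell. Their median L2FC was -0.64, with a range of -1.19 to -0.37, against a median of -0.17 over all genes. Among all 49 genes, 43 fell, none rose and 6 did not pass (all 49 values were below 0), while 66.2% of all genes tested were called lower and 0.169% higher. Being called lower than the non-targeting guides is thus common in this screen, and the size of the change carries more than the call. The 31 constitutive subunits held ranks 159 to 2180 of 17762 genes ordered from the lowest L2FC. With all targeting guides in place of non-targeting guides as the reference, 8 of the 49 were called lower, namely PSMG3, PSMA7, PSMD4, PSMA5, PSMB5, PSMA4, PSMB7 and PSMA1, against 2.96% of all genes. A test of read counts summed over a gene's guides against the spread between libraries (edgeR) called 41 of the 49 lower, against 58.1% of all genes. Of the 190 guides, 43 fell by the F-test and none rose, where 5.93% of all guides fell and 1.19% rose.

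**Figure D1:**
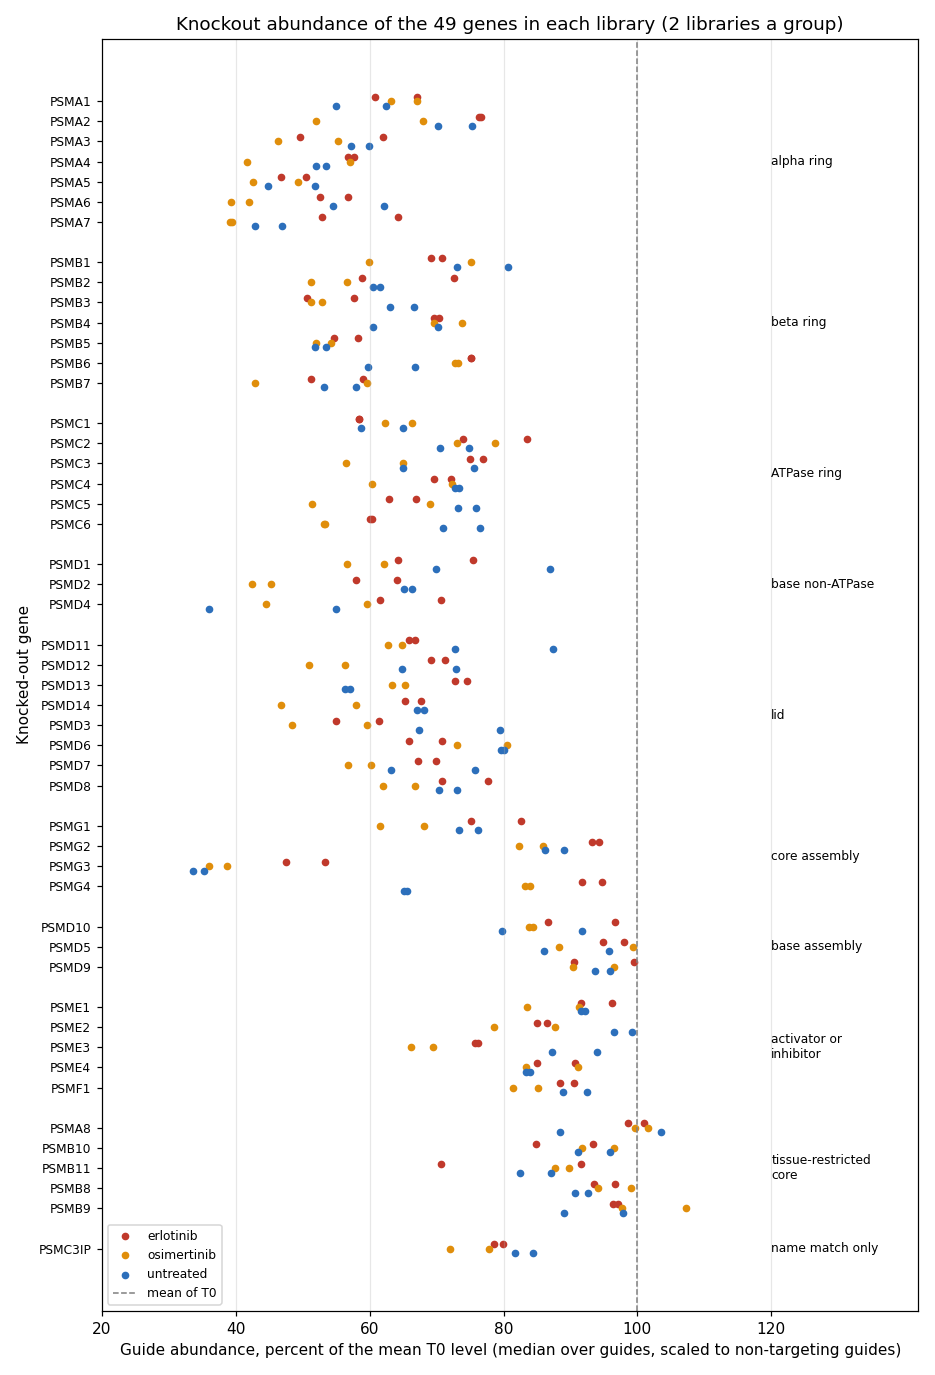
Level of each of the 49 knockouts in every endpoint library, as a percent of the mean T0 level (x axis, median over guides), with genes down the page by subcomplex, 2 points for each group and the T0 mean as a dashed line. PSMG3 has the lowest untreated points, at 33.6% and 35.2%, and the tissue-restricted subunits lie between 82.4% and 107%, except for 1 erlotinib library of PSMB11 at 70.6%.

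Within the core particle the alpha ring, which gates entry to the barrel, had the lowest median of all subcomplexes at -0.80, with 7 of 7 subunits lower. PSMA7 was the lowest of the ring, and its 2 guides stood at 64.2% and 52.9% in erlotinib, 39.1% and 39.5% in osimertinib, 42.9% and 46.9% in untreated and 100.3% and 99.7% in T0 libraries. The L2FC of PSMA7 was -1.19 ± 0.58 (SD, n = 2 guides, adjusted p = 0.000371), which was the smallest adjusted p this test could give in the comparison. PSMA2 was the least depleted alpha subunit, with 76.4% and 76.6% in erlotinib, 52.0% and 68.0% in osimertinib, 70.2% and 75.3% in untreated and 100.03% and 99.97% in T0 libraries, and an L2FC of -0.47 ± 0.32 (SD, n = 4 guides, adjusted p = 0.000371). The untreated libraries lay below the T0 libraries for both genes, and the remaining alpha subunits had L2FC values of -1.05 for PSMA5, -0.91 for PSMA4, -0.80 for PSMA1, -0.76 for PSMA6 and -0.75 for PSMA3.

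The beta ring, which carries the catalytic sites, had a median of -0.70, and 7 of 7 subunits fell. PSMB5, the chymotrypsin-like catalytic subunit that bortezomib binds, was the lowest, at 58.3% and 54.7% in erlotinib, 51.9% and 54.2% in osimertinib, 53.4% and 51.8% in untreated and 95.5% and 105% in T0 libraries. All 4 of its guides fell by the F-test, and its L2FC was -0.94 ± 0.51 (SD, n = 4 guides, adjusted p = 0.000371). The other catalytic subunits were PSMB7, which is trypsin-like and had an L2FC of -0.85, and PSMB6, which is caspase-like and had -0.68. Levels of PSMB7 were 51.2% and 59.1% in erlotinib, 59.6% and 42.9% in osimertinib, 53.2% and 58.0% in untreated and 96.5% and 104% in T0 libraries. PSMB6 was at 75.2% and 75.2% in erlotinib, 73.3% and 72.8% in osimertinib, 66.8% and 59.7% in untreated and 101% and 99.3% in T0 libraries. PSMB1, a non-catalytic subunit, was the least depleted of the ring, at 70.8% and 69.2% in erlotinib, 75.1% and 60.0% in osimertinib, 80.6% and 73.0% in untreated and 105% and 95.5% in T0 libraries, with an L2FC of -0.40 ± 0.22 (SD, n = 4 guides, adjusted p = 0.000371). For all of these genes both untreated libraries were below both T0 libraries, and PSMB2 (-0.73), PSMB4 (-0.70) and PSMB3 (-0.61), also without catalytic activity, lay between PSMB5 and PSMB1.

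The paralogues that replace core subunits in other tissues showed little change. Their median L2FC was -0.11, nearer to 0 than that of all genes, and 2 of 5 were called lower. PSMB8, which takes the place of PSMB5 in the immunoproteasome, was at 96.7% and 93.5% in erlotinib, 99.1% and 94.1% in osimertinib, 90.6% and 92.6% in untreated and 102% and 98.0% in T0 libraries, with an L2FC of -0.16 against -0.94 for PSMB5. PSMB9, the counterpart of PSMB6, was at 97.1% and 96.3% in erlotinib, 107% and 97.7% in osimertinib, 89.0% and 97.9% in untreated and 103% and 97.5% in T0 libraries, with an L2FC of -0.11 that did not pass. PSMB10 replaces PSMB7 in the same particle and was at 84.9% and 93.4% in erlotinib, 91.7% and 96.5% in osimertinib, 91.1% and 95.8% in untreated and 100.2% and 99.8% in T0 libraries, and its L2FC of -0.11 did not pass. So each immunoproteasome subunit stood above its constitutive counterpart in all endpoint libraries. PSMB11 is the thymic counterpart of PSMB5 and was at 70.6% and 91.5% in erlotinib, 89.7% and 87.7% in osimertinib, 82.4% and 87.0% in untreated and 97.1% and 103% in T0 libraries, with an L2FC of -0.25 ± 0.31 (SD, n = 4 guides, adjusted p = 0.000371). PSMA8 is the testicular counterpart of PSMA7 and was at 101% and 98.5% in erlotinib, 102% and 99.7% in osimertinib, 104% and 88.5% in untreated and 96.8% and 103% in T0 libraries, and its L2FC of -0.07 did not pass. PSMB11 was the lowest and PSMA8 the highest of the 5, and the untreated libraries of PSMA8 lay on either side of the T0 mean. Differences between paralogues were not tested.

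In the regulatory particle the 6 ATPases that unfold substrates had a median L2FC of -0.49 and lay close together, between -0.65 and -0.42. PSMC1 was the lowest, at 58.5% and 58.5% in erlotinib, 66.3% and 62.2% in osimertinib, 58.6% and 64.9% in untreated and 95.3% and 105% in T0 libraries. PSMC5 was the highest, at 66.9% and 62.9% in erlotinib, 51.4% and 69.0% in osimertinib, 73.2% and 75.9% in untreated and 109% and 91.5% in T0 libraries. The ring's other members were PSMC3 (-0.52), PSMC4 (-0.51), PSMC2 (-0.48) and PSMC6 (-0.45), and all 6 fell. The base also holds PSMD1 and PSMD2, its large scaffolds, and the ubiquitin receptor PSMD4. PSMD4 had an L2FC of -1.14 ± 0.22 (SD, n = 4 guides, adjusted p = 0.000371), rank 184 of all genes, with all 4 guides lower by the F-test. Its levels were 70.7% and 61.5% in erlotinib, 44.6% and 59.5% in osimertinib, 35.9% and 55.0% in untreated and 98.9% and 101% in T0 libraries, so its untreated libraries differed widely from each other while both lay below T0. PSMD1 was the least depleted of the 3 at 64.3% and 75.4% in erlotinib, 56.7% and 62.1% in osimertinib, 69.8% and 87.0% in untreated and 102% and 98.2% in T0 libraries, with an L2FC of -0.43 ± 0.21 (SD, n = 4 guides, adjusted p = 0.000371), and PSMD2 had -0.64.

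All 8 lid subunits fell, with a median of -0.52. PSMD13 was the lowest, at 74.6% and 72.8% in erlotinib, 65.3% and 63.4% in osimertinib, 57.1% and 56.3% in untreated and 103% and 96.8% in T0 libraries, and its L2FC was -0.83 ± 0.30 (SD, n = 3 guides, adjusted p = 0.000371). PSMD6 was the highest, at 65.9% and 70.8% in erlotinib, 73.0% and 80.6% in osimertinib, 80.0% and 79.6% in untreated and 101% and 99.4% in T0 libraries, and its L2FC was -0.37 ± 0.32 (SD, n = 3 guides, adjusted p = 0.000371). PSMD14, the deubiquitinase that removes ubiquitin chains as a substrate enters, had an L2FC of -0.64, and its partner PSMD7 had -0.54. The structural lid subunits PSMD12 (-0.58), PSMD8 (-0.50), PSMD3 (-0.45) and PSMD11 (-0.40) made up the rest, so every lid value was below the median of all genes.

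Assembly factors differed widely from each other. PSMG3, which pairs with PSMG4 to build the alpha ring, had the lowest L2FC of all 49 genes at -1.55 ± 0.27 (SD, n = 4 guides, adjusted p = 0.000371), rank 23 of 17762. Its levels were 47.6% and 53.3% in erlotinib, 38.7% and 36.1% in osimertinib, 33.6% and 35.2% in untreated and 97.6% and 102% in T0 libraries, and all 4 guides fell by the F-test. PSMG4 had an L2FC of -0.63 ± 0.60 (SD, n = 4 guides, adjusted p = 0.000371), with guides from -1.35 to 0.11, 2 of which fell. The other pair of core chaperones was less depleted, with -0.41 for PSMG1 and -0.17 for PSMG2, whose level was 93.2% and 94.2% in erlotinib, 82.2% and 86.0% in osimertinib, 86.2% and 89.0% in untreated and 97.1% and 103% in T0 libraries. All 4 core chaperones were called lower, with a median of -0.52. Chaperones of the base had a median of -0.14, above that of all genes. PSMD10 was the lowest of these, at 86.7% and 96.7% in erlotinib, 84.3% and 83.8% in osimertinib, 91.7% and 79.8% in untreated and 103% and 97.5% in T0 libraries, with an L2FC of -0.24. PSMD9 was the highest, at 99.5% and 90.6% in erlotinib, 96.6% and 90.4% in osimertinib, 96.0% and 93.6% in untreated and 99.3% and 101% in T0 libraries, and its L2FC of -0.10 did not pass, while PSMD5 fell with -0.14.

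Knockouts of activators and of the inhibitor changed little, with a median of -0.14 and 3 of 5 lower, where 66.2% of all genes were called lower. PSME4, a single-chain cap of the core, was the lowest, at 85.1% and 90.6% in erlotinib, 91.1% and 83.3% in osimertinib, 83.3% and 84.0% in untreated and 100.4% and 99.6% in T0 libraries, with an L2FC of -0.27. PSME2, which with PSME1 forms the interferon-induced cap, was the highest, at 86.6% and 85.0% in erlotinib, 78.6% and 87.7% in osimertinib, 96.5% and 99.1% in untreated and 101% and 98.7% in T0 libraries. The L2FC of PSME2 (-0.01) and of PSME1 (-0.10) did not pass, and the nuclear activator PSME3 (-0.19) and the inhibitor PSMF1 (-0.14) fell. PSMC3IP, which is no proteasome gene, was at 78.6% and 79.9% in erlotinib, 72.1% and 77.8% in osimertinib, 81.8% and 84.3% in untreated and 96.0% and 104% in T0 libraries and had an L2FC of -0.28 ± 0.08 (SD, n = 4 guides, adjusted p = 0.000371). Other essential complexes were depleted as far as the constitutive proteasome or further, with medians of -0.79 over 55 cytosolic ribosome genes, -0.74 over 9 genes of the COP9 signalosome, a relative of the lid, and -0.76 over 8 genes of the CCT chaperonin.

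**Figure D2:**
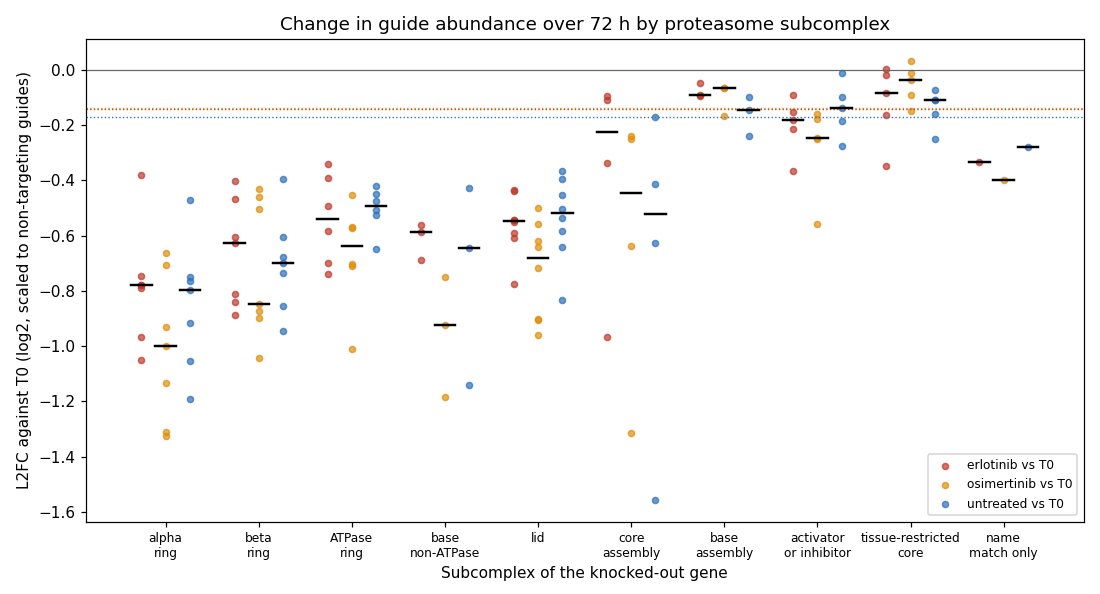
L2FC against T0 (y axis, log2) of each gene in erlotinib, osimertinib and untreated cells, by subcomplex (x axis), with black bars for the medians and dotted lines for the medians of all genes in the same colours. The constitutive subcomplexes lie below the dotted lines in the 3 conditions, and osimertinib medians lie lowest in each of the 5 constitutive subcomplexes.

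Conditional essentiality, drug against T0, covers the same 72 h in the presence of drug. The constitutive subunits had a median L2FC of -0.61 in erlotinib, -0.75 in osimertinib and -0.64 in untreated cells, and all 31 were called lower each time. Over all 49 genes, 40 were called lower and none higher in erlotinib, where 51.3% of all genes were lower and 0.692% higher. In osimertinib 41 were called lower and none higher, where 43.6% of all genes were lower and 1.43% higher. The alpha ring median was -0.78 in erlotinib, -0.9999 in osimertinib and -0.80 in untreated cells. The lid median was -0.55 in erlotinib, -0.68 in osimertinib and -0.52 in untreated cells. Core assembly ran differently, with medians of -0.22 in erlotinib, -0.44 in osimertinib and -0.52 in untreated cells. These 3 contrasts use the same T0 libraries, so the direct comparisons below are the ones that set the conditions against each other.

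Erlotinib against untreated asked which knockouts were more or less abundant with that drug than without it. The paper cautions that contrasts of drug with untreated mix growth and death. A knockout that is slow to grow without drug can give a positive value though its drug response is unaltered. Over the 31 constitutive subunits the median L2FC was -0.04, against 0.00 over all genes, with 5 lower and 3 higher. The sign of this median depended on the setting. It was -0.02 with the mean over guides, 0.07 by edgeR on summed counts and 0.06 by limma on gene levels. The cytosolic ribosome had a median of 0.14, with 18 of 55 genes higher and 1 lower. The COP9 signalosome had 0.03, with 2 of 9 higher and 0 lower, and CCT had -0.07, with 0 of 8 higher and 3 lower. Rises under erlotinib were thus not particular to proteasome genes. Of all 49 genes, 7 fell and 5 rose, where 4.6% of all genes tested were lower and 6.24% higher. By the summed-count test 1 fell and 4 rose, where 4.04% of all genes were lower and 7.43% higher. Of these 4 genes, 3 were among the 5. Against all targeting guides 2 fell and 3 rose, where 0.67% of all genes were lower and 1.4% higher. Among the 190 guides, 2 fell and 7 rose by the F-test, where 1.05% of all guides were lower and 1.76% higher.

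The genes that rose under erlotinib included the chaperone pair that builds the alpha ring. PSMG3 had an L2FC of 0.54 ± 0.24 (SD, n = 4 guides, adjusted p = 0.00267) and PSMG4 of 0.50 ± 0.52 (SD, n = 4 guides, adjusted p = 0.00267). PSMG4 stood at 91.8% and 94.7% in erlotinib, 83.2% and 84.0% in osimertinib, 65.2% and 65.6% in untreated and 99.3% and 101% in T0 libraries. For both genes the erlotinib libraries lay above the untreated libraries by more than the replicates of either group differed. Both were picked by a high L2FC from these same libraries, so the separation is no support apart from the calls. PSMG3 knockouts in erlotinib stayed far below T0. The ubiquitin receptor PSMD4, whose levels are given above, had an L2FC of 0.53 ± 0.11 (SD, n = 4 guides, adjusted p = 0.00267), with all 4 guides between 0.38 and 0.60. By the F-test 1 of 4 PSMD4 guides rose, and 2 of 4 guides each of PSMG3 and PSMG4. PSMA7 had 0.38 ± 0.36 (SD, n = 2 guides, adjusted p = 0.00531), but 0.047 with its 2 guides of low count included (adjusted p = 0.644, empirical test) and 0.31 by edgeR on summed counts (adjusted p = 0.385). PSMD4 lost its call in limma on gene levels (0.58, adjusted p = 0.060). The last of the 5 was PSMB2, with 0.21 ± 0.71 (SD, n = 4 guides, adjusted p = 0.03). The PSMB2 value rests on opposed guides, which ran from -1.09 to 0.44, with 1 called lower by the F-test and none higher, and the mean over guides was -0.06.

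Of the 7 genes that fell under erlotinib, 4 were in the regulatory particle. The ATPases PSMC5, at -0.43 ± 0.36 (SD, n = 4 guides, adjusted p = 0.00267), and PSMC6, at -0.42 ± 0.30 (SD, n = 4 guides, adjusted p = 0.00267), were the lowest, and PSMC5 levels are given above. PSMC6 stood at 60.0% and 60.3% in erlotinib, 53.4% and 53.2% in osimertinib, 71.0% and 76.5% in untreated and 90.7% and 110.3% in T0 libraries. The lid subunits PSMD3 and PSMD11 followed, with -0.29 ± 0.13 (SD, n = 4 guides, adjusted p = 0.004) for PSMD3 and -0.28 ± 0.32 (SD, n = 4 guides, adjusted p = 0.004) for PSMD11. PSMD3 was at 54.9% and 61.3% in erlotinib, 48.5% and 59.5% in osimertinib, 79.5% and 67.4% in untreated and 108% and 92.8% in T0 libraries. PSMD11 was at 65.9% and 66.8% in erlotinib, 64.8% and 62.7% in osimertinib, 87.4% and 72.8% in untreated and 104% and 96.5% in T0 libraries. By the F-test 1 of 4 PSMD11 guides fell, and 0 of 4 guides each of PSMC5, PSMC6 and PSMD3. In all 4 genes both erlotinib libraries were below both untreated libraries, although the genes were picked by a low L2FC from these same libraries. By edgeR on summed counts none of the 4 passed, with adjusted p of 0.070 for PSMC5, 0.077 for PSMC6, 0.094 for PSMD3 and 0.060 for PSMD11, and limma on gene levels also lost PSMC5, PSMC6 and PSMD3. PSME2 (-0.23), PSMB1 (-0.22) and PSME3 (-0.21) completed the 7. Several calls were lost when 1 library was left out, which need not mean a smaller change. PSMB1 and PSME3, for example, lost theirs at an L2FC further from 0 than with all libraries. Without erlotinib replicate 1 the call was lost for PSMA7 (0.24), and without erlotinib replicate 2 for PSMB1 (-0.24), PSME3 (-0.24), PSME2 (-0.22) and PSMB2 (0.08), which left 4 genes lower. Without untreated replicate 1 it was lost for PSMD3 (-0.18) and PSMB2 (0.17), and without untreated replicate 2 for PSMB1 (-0.27), PSMC6 (-0.23), PSME2 (-0.21) and PSMB2 (0.20).

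Osimertinib against untreated gave more lower than higher calls among these genes. The constitutive subunits had a median L2FC of -0.14, against 0.01 over all genes, with 10 lower and 1 higher of 31. The regulatory particle had a median of -0.25 with 8 of 17 lower and none higher, and the core particle a median of -0.11 with 2 of 14 lower and 1 higher. Of all 49 genes, 12 fell and 2 rose, where 5.04% of all genes tested were lower and 4.98% higher. By the summed-count test 11 fell and 2 rose, where 7.63% of all genes were lower and 9.42% higher. Of these 11 genes, 9 were among the 12. Against all targeting guides 3 fell and 0 rose, where 0.867% of all genes were lower and 0.681% higher. Among the guides, 13 of 190 fell and 2 rose by the F-test, where 2.33% of all guides were lower and 2.41% higher. Medians of the other complexes were 0.01 for the ribosome, -0.04 for the COP9 signalosome and -0.09 for CCT.

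The ATPase PSMC6 was the lowest under osimertinib, with an L2FC of -0.74 ± 0.49 (SD, n = 4 guides, adjusted p = 0.00395), rank 20 of 17762 genes. Both osimertinib libraries lay below both untreated libraries, but its guides ran from -0.75 to 0.23, 1 of 4 fell by the F-test, and limma on gene levels gave -0.28 (adjusted p = 0.133). The scaffold PSMD2 had an L2FC of -0.54 ± 0.32 (SD, n = 4 guides, adjusted p = 0.00395), and its levels were 64.2% and 57.9% in erlotinib, 42.5% and 45.3% in osimertinib, 66.4% and 65.1% in untreated and 103% and 97.5% in T0 libraries. In PSMD2 the osimertinib libraries were again below the untreated ones, and 2 of 4 guides fell by the F-test. The alpha subunit PSMA6 had an L2FC of -0.53 ± 0.13 (SD, n = 4 guides, adjusted p = 0.00395), with all 4 guides between -0.60 and -0.31. By the F-test 0 of these 4 guides fell. Its levels were 52.6% and 56.7% in erlotinib, 42.0% and 39.3% in osimertinib, 62.1% and 54.5% in untreated and 91.8% and 109% in T0 libraries. PSME3, which caps the core in the nucleus, had an L2FC of -0.41 ± 0.34 (SD, n = 4 guides, adjusted p = 0.00395), and its levels were 75.7% and 76.2% in erlotinib, 66.2% and 69.4% in osimertinib, 93.9% and 87.2% in untreated and 98.0% and 102% in T0 libraries. In both genes the osimertinib libraries did not overlap the untreated libraries, and of these 4 genes PSME3 had the L2FC nearest to 0 without drug. All 4 genes were picked by a low L2FC from these same libraries, so their separation is no support apart from the calls.

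The other genes that fell under osimertinib were the lid subunits PSMD3 (-0.35), PSMD14 (-0.33) and PSMD7 (-0.31), the base subunits PSMC5 (-0.31), PSMD1 (-0.30) and PSMC3 (-0.25), the beta subunit PSMB3 (-0.39) and the activator PSME2 (-0.26). PSMC3 stood at 75.0% and 77.0% in erlotinib, 65.0% and 56.4% in osimertinib, 75.7% and 65.0% in untreated and 103% and 97.4% in T0 libraries, so its osimertinib and untreated libraries overlapped slightly. The PSMB3 value changed sign, to 0.08, when the reads of its guides were summed. By edgeR on summed counts PSMC3 (-0.22, adjusted p = 0.116) and PSMD1 (-0.16, adjusted p = 0.161) did not pass. PSMG4 rose with 0.37 ± 0.34 (SD, n = 4 guides, adjusted p = 0.00395), and its osimertinib libraries were above its untreated libraries, the same libraries that gave the call. PSMB6 rose with 0.22 ± 0.15 (SD, n = 4 guides, adjusted p = 0.0461), close to the threshold. Without osimertinib replicate 1 the call was lost for PSMC3 (-0.31), PSMB6 (0.22), PSMD14 (-0.22), PSMD1 (-0.18), PSME2 (-0.18), PSMD3 (-0.18) and PSMC5 (-0.12), which left 6 of the 12 genes lower. Without osimertinib replicate 2 it was lost for PSMC3 (-0.16), PSMB6 (0.12) and PSMB3 (-0.12), and without untreated replicate 1 for PSMC3 (-0.07). Without untreated replicate 2 it was lost for PSME2 (-0.29), PSMC5 (-0.29), PSMB6 (0.17), PSMD7 (-0.17) and PSMD1 (-0.05). The calls of PSMC6, PSMD2, PSMA6, PSME3 and PSMG4 were kept without any 1 of the 8 libraries.

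**Figure D3:**
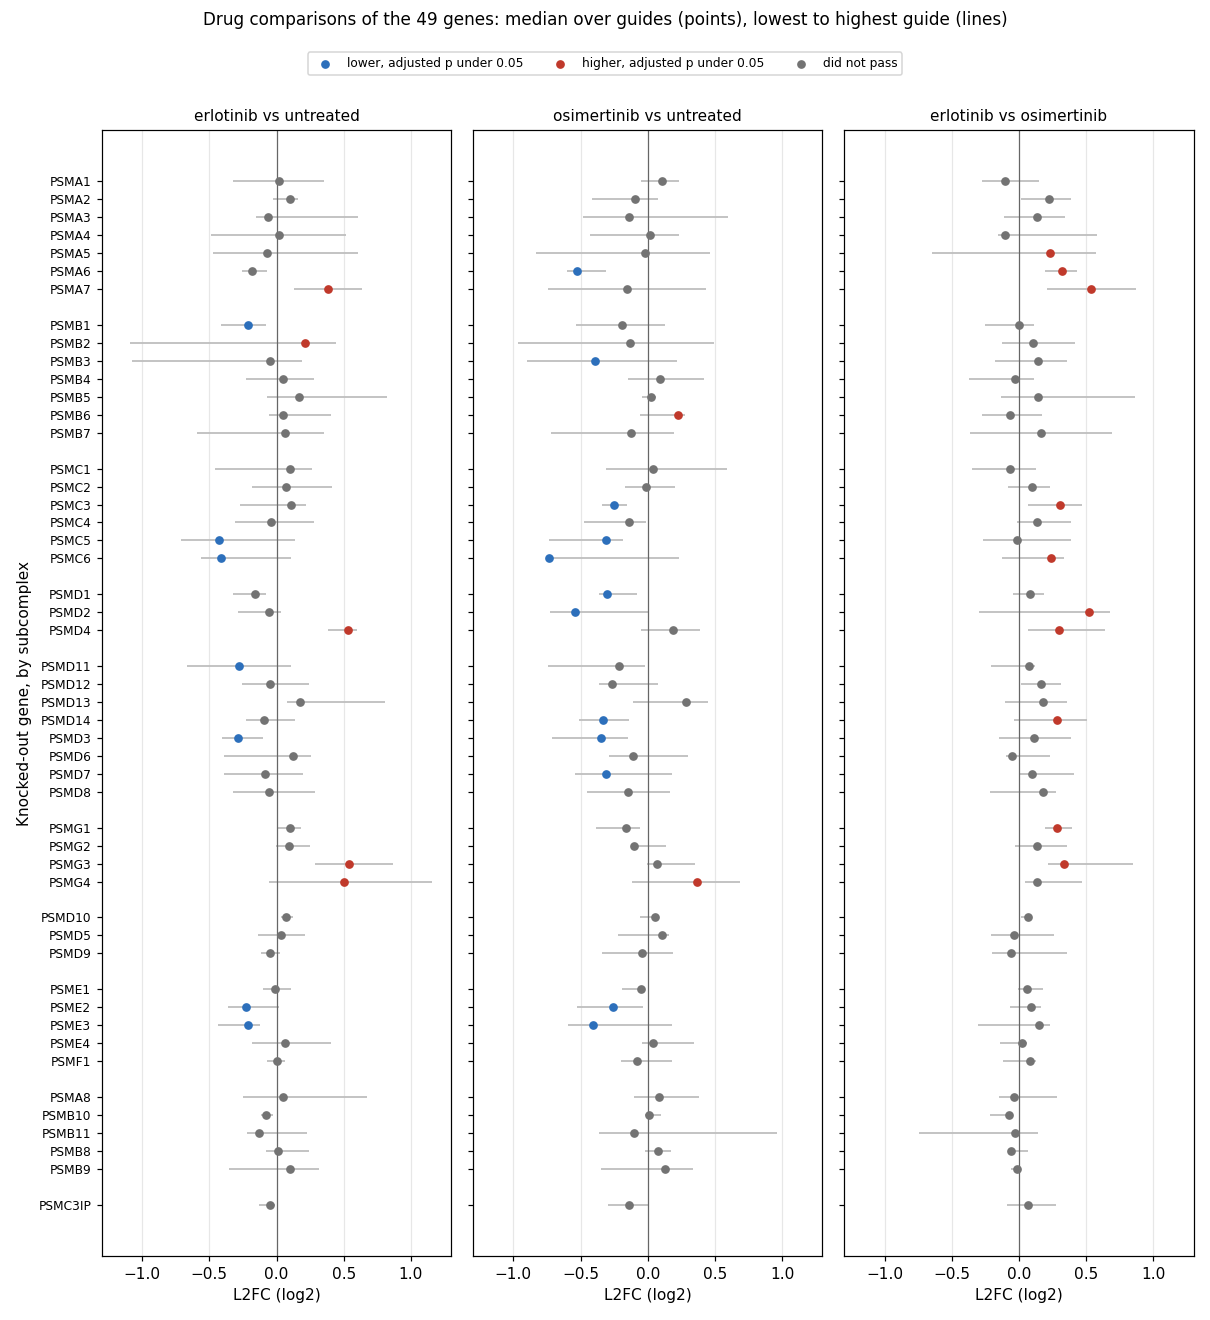
L2FC (x axis, log2) of the 49 genes by subcomplex in erlotinib vs untreated, osimertinib vs untreated and erlotinib vs osimertinib, with points for the median over guides, coloured by call, and lines from the lowest to the highest guide. Of the 12 lower calls in osimertinib vs untreated 8 are in the regulatory particle, and erlotinib vs osimertinib holds higher calls and no lower call.

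The direct contrast of the drug arms, erlotinib vs osimertinib, compared these cultures and not the compounds at a matched dose, since the doses differ. Of the 49 genes, 10 were higher in erlotinib and none was lower, where 2.23% of all genes tested were higher and 0.867% lower. The constitutive subunits had a median L2FC of 0.14 with 8 of 31 higher, against a median of -0.00 over all genes. The cytosolic ribosome had a median of 0.09, with 10 of 55 genes higher and 0 lower. The COP9 signalosome had 0.11, with 1 of 9 higher and 0 lower, and CCT had -0.02, with 0 of 8 higher and 0 lower. Higher levels in erlotinib than in osimertinib were thus not particular to proteasome genes. At an unadjusted p under 0.05 none of the 49 genes was lower, and the summed-count test called none of them lower. The summed-count test called 4 of the 49 higher, where it called 2.08% of all genes. Only 3 of these 4 were among the 10 proteasome genes called above, and the other 7 of those 10 did not pass it. The reference of all targeting guides left 1, where it left 0.281% of all genes. By the F-test 3 of 190 guides were higher and none lower, where 0.218% of all guides were higher and 0.111% lower.

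PSMA7 and PSMD2 differed most between the drug arms. PSMA7, with levels of 64.2% and 52.9% in erlotinib against 39.1% and 39.5% in osimertinib libraries, had an L2FC of 0.54 ± 0.47 (SD, n = 2 guides, adjusted p = 0.00713). PSMD2, at 64.2% and 57.9% in erlotinib against 42.5% and 45.3% in osimertinib libraries, had an L2FC of 0.52 ± 0.45 (SD, n = 4 guides, adjusted p = 0.00713). Neither gene's drug groups overlapped, although PSMA7 rests on 2 guides and 1 PSMD2 guide pointed the other way. Both genes were picked by a high L2FC from these same libraries, so the separation is no support apart from the calls. By edgeR on summed counts PSMA7 did not pass (0.60, adjusted p = 0.117). PSMG3 (0.34), PSMA6 (0.32), PSMC3 (0.31) and PSMD4 (0.30) were also higher in erlotinib. So were PSMD14 (0.29), PSMG1 (0.28), PSMC6 (0.24) and PSMA5 (0.23), the last of these just under the threshold. PSMD14 stood at 67.7% and 65.2% in erlotinib, 46.7% and 58.0% in osimertinib, 68.1% and 67.1% in untreated and 107% and 93.8% in T0 libraries. PSMG1, partner of PSMG2 in core assembly, stood at 75.1% and 82.7% in erlotinib, 68.1% and 61.5% in osimertinib, 76.2% and 73.3% in untreated and 103% and 97.0% in T0 libraries. All 4 of its guides lay above 0 in this contrast, but 0 of 4 passed the F-test. PSMA5 stood at 46.7% and 50.5% in erlotinib, 42.6% and 49.3% in osimertinib, 51.9% and 44.9% in untreated and 95.6% and 105% in T0 libraries, so its drug groups overlapped.

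Most of these 10 calls were also lost when 1 library was left out. In several of these losses the L2FC was no smaller than with all 8 libraries, so a lost call need not mean a smaller change. Without erlotinib replicate 1 the call was lost for PSMA7 (0.38), PSMC6 (0.28) and PSMD4 (0.27), and without erlotinib replicate 2 for PSMG1 (0.22), PSMD14 (0.22), PSMA5 (0.12) and PSMC6 (0.09). Without osimertinib replicate 1 it was lost for PSMG1 (0.33), PSMC3 (0.33), PSMD14 (0.30), PSMC6 (0.23), PSMA5 (0.13) and PSMD4 (0.13), which left 4 genes higher. Without osimertinib replicate 2 it was lost for PSMA6 (0.27), PSMG1 (0.26), PSMC3 (0.21) and PSMC6 (0.07). PSMD2 and PSMG3 kept the call without any 1 of the 8 libraries, but lost it in limma on gene levels, with 0.16 (adjusted p = 0.480) for PSMD2 and 0.34 (adjusted p = 0.060) for PSMG3.

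**Figure D4:**
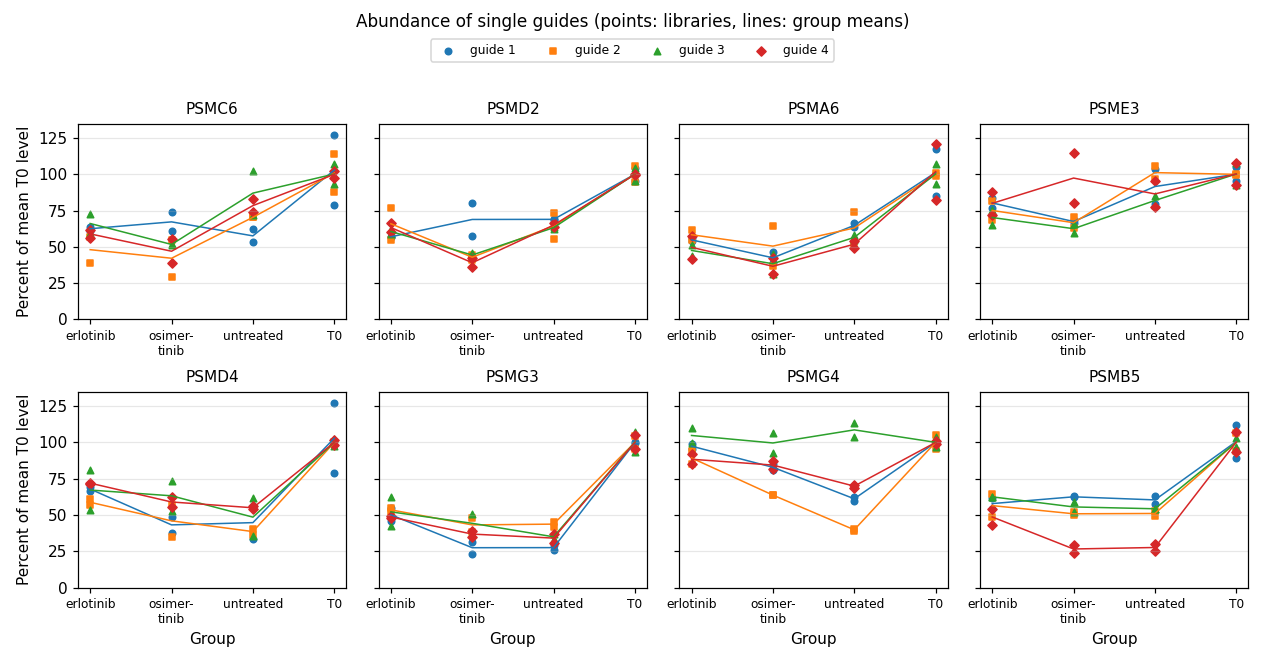
Level of every guide of 8 genes as a percent of the mean T0 level (y axis), in erlotinib, osimertinib, untreated and T0 libraries (x axis), with points for libraries and lines for group means. Guides of PSMA6 and PSMG3 run together, while 1 guide each of PSMC6, PSMD2 and PSME3 lies above the other 3 in osimertinib, and the guides of PSMG4 are spread widely in untreated cells.

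Factors of the pathway that the name rule does not match were followed as a list of 27 tested genes, chosen with earlier results of these data known. In untreated vs T0 21 fell and none rose, with a median of -0.25, where 66.2% of all genes were called lower and 0.169% higher. The lid component SHFM1 had -0.91 ± 0.39 (SD, n = 4 guides, adjusted p = 0.000371) and was the lowest. The main ubiquitin-activating enzyme UBA1 (-0.63) and the segregase VCP (-0.58) with its cofactors UFD1L (-0.60) and NPLOC4 (-0.57) lay in the range of the constitutive subunits. The core maturation factor POMP had -0.33, and NFE2L1, the transcription factor that raises proteasome gene expression when proteasome activity is low, had -0.21.

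Under osimertinib the 2 genes of proteasome nuclear import fell against untreated. AKIRIN2, which carries assembled proteasomes into the nucleus, stood at 74.0% and 72.9% in erlotinib, 58.9% and 55.8% in osimertinib, 85.5% and 89.1% in untreated and 106% and 94.3% in T0 libraries, and its L2FC was -0.56 ± 0.19 (SD, n = 4 guides, adjusted p = 0.00395). IPO9, the importin that works with AKIRIN2, stood at 68.1% and 71.0% in erlotinib, 66.2% and 63.8% in osimertinib, 85.0% and 91.2% in untreated and 101% and 99.2% in T0 libraries, and its L2FC was -0.40 ± 0.22 (SD, n = 4 guides, adjusted p = 0.00395). In both genes the osimertinib libraries were below the untreated libraries, and 3 of 4 AKIRIN2 guides and 2 of 4 IPO9 guides fell by the F-test. The 2 genes are described for their low L2FC in these same libraries, so the separation is no support apart from the calls. In erlotinib vs untreated AKIRIN2 fell with -0.20 ± 0.08 (SD, n = 4 guides, adjusted p = 0.0409), and IPO9 had -0.17 ± 0.19 (SD, n = 4 guides, adjusted p = 0.0873) and did not pass. AKIRIN2 was higher in erlotinib than in osimertinib, with 0.36 ± 0.15 (SD, n = 4 guides, adjusted p = 0.00713). Over the 27 genes 4 fell and 1 rose under osimertinib, where 5.04% of all genes were lower and 4.98% higher. The others were UBA1 (-0.29), the shuttle receptor UBQLN2 (-0.28) and KIAA0368 (0.35), a proteasome-associated adaptor, which rose. Under erlotinib 3 fell, namely AKIRIN2, UBA1 (-0.26) and NSFL1C (-0.20), a cofactor of VCP, and NPLOC4 (0.33) rose, where 4.6% of all genes were lower and 6.24% higher.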

How the data were processed

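PC9-Cas9 cells carrying the TKOv3 guide library were sequenced across the guide cassette in 8 libraries, 2 for each of erlotinib, osimertinib, untreated and T0. Guides were amplified in a 2-step PCR without molecular identifiers, so read depth covers counting error only. The values deposited by the authors are raw counts of reads for each guide, not normalized, in a single table. The methods name Bowtie2 for assigning reads to guides, while the submitters' processing notes list Bowtie 1.3.1. A read whose sequence fits no guide, or several guides that are alike, could be lost or misassigned at that step, and this was not examined here.

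The 8 libraries held 32096281 to 39200466 reads. The table holds 71090 guides, 142 of them non-targeting. Counts were scaled by TMM in edgeR (version 4.0.16, R 4.3.3), and the 5% of guides with the smallest mean scaled count, below 46.0, were dropped, which kept 67397 targeting and 138 non-targeting guides. A quasi-likelihood model with group as the only term was fitted to all 8 libraries, which leaves 4 residual degrees of freedom. The L2FC of a gene is the median over at least 2 kept guides, less the median of the non-targeting guides. Its two-sided empirical p came from 10000 random draws of non-targeting guides, each the size of the gene's own set, with Benjamini-Hochberg adjustment over 17762 genes and a threshold of 0.05. The study also derived empirical p-values from non-targeting guides, but grouped these into fixed sets and z-scored the gene values first, which was not done here. Errors are SDs between the guides of a gene. Guides were also tested singly with edgeR's F-test, adjusted over all 67535 guides kept, with shares of guides called given over the targeting guides. Gene names of 50 entries have the form of a currency amount, and none of them is a proteasome gene.

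Groups came from the sample labels. Every proteasome gene is named with its value in untreated vs T0. Values in each library are given for genes called in a comparison between drug and untreated or between the drugs (the 4 lowest and 4 highest where more than 8 were called), for the lowest and highest gene of each subcomplex, for paralogue pairs and for PSMC3IP. The genes, the lists and the tests were chosen with earlier results of these data known.

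Alternatives were DESeq2 1.42.0 size factors and fold changes, no filter on low counts, the lowest 10% of guides left out, all targeting guides as the reference, the mean over guides, edgeR on counts summed per gene, limma 3.58.1 on gene levels (prior count 1), a replicate block, and leaving out each library in turn. The scripts were tested on simulated counts. The study's own guide sequences were not used here, and no sequence is printed. A gene of the wider pathway list is counted but not reported here by name.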

Additional observations from a re-analysis of the deposited data

Results flagged for a closer look

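In the direct contrast of the drug arms 10 of the 49 genes differed between erlotinib and osimertinib, each higher in erlotinib by the empirical test against non-targeting guides. The L2FC of erlotinib vs osimertinib was 0.54 for PSMA7, 0.52 for PSMD2, 0.34 for PSMG3, 0.32 for PSMA6, 0.31 for PSMC3 and 0.30 for PSMD4, with an adjusted p of 0.00713 for each of these 6 genes. PSMD14 had 0.29 (adjusted p = 0.0138), PSMG1 had 0.28 (adjusted p = 0.0164), PSMC6 had 0.24 (adjusted p = 0.0442) and PSMA5 had 0.23 (adjusted p = 0.0452). In the same contrast 2.23% of all genes tested were called higher, and 10 of 55 cytosolic ribosome genes. Both erlotinib libraries lay above both osimertinib libraries in 9 of the 10 proteasome genes, PSMA5 being the exception. The 10 genes were picked by a high L2FC from these same libraries, and the share over all genes was not counted. The separation is therefore no support apart from the calls.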

How the results depend on the processing

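The median L2FC of all genes in untreated vs T0 was -0.17 against non-targeting guides. With all targeting guides as the reference, 8 genes in place of 43 were lower in untreated vs T0, 11 in place of 40 in erlotinib vs T0 and 15 in place of 41 in osimertinib vs T0. The same reference left 2 lower and 3 higher in erlotinib vs untreated (7 and 5 with non-targeting guides), 3 lower and 0 higher in osimertinib vs untreated (12 and 2), and 1 higher in erlotinib vs osimertinib (10). It turned the sign of PSMB8 (0.013), PSMF1 (0.037), PSMG2 (0.0014) and PSMD5 (0.030) in untreated vs T0, since these genes lay near the median of all genes. Leaving out the lowest 10% of guides gave 28 lower in untreated vs T0, 26 in erlotinib vs T0, 3 in erlotinib vs untreated and 7 in osimertinib vs untreated, and it left 35 of the 49 genes to test. Summed counts in edgeR called 1 lower in erlotinib vs untreated and 4 higher in erlotinib vs osimertinib, 3 of which were among the 10. They turned PSMB3 to 0.080 in osimertinib vs untreated. Limma on gene levels called 1 lower in erlotinib vs untreated, 6 lower in osimertinib vs untreated and 1 higher in erlotinib vs osimertinib. The mean over guides turned PSMB2 to -0.055 in erlotinib vs untreated and left 1 higher in osimertinib vs untreated. DESeq2 gave the same counts throughout. No setting called any gene lower in erlotinib vs osimertinib. The smaller set of genes bears on the counts with the lowest 10% of guides left out, and the reference's own level on the signs that it turned. The cause of the other changes, lost calls with all targeting guides as the reference included, was not tested.

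Without 1 library at a time, 40 to 43 genes were lower in untreated vs T0, 36 to 41 in erlotinib vs T0 and 38 to 41 in osimertinib vs T0. In erlotinib vs untreated 4 to 7 were lower and 4 to 7 higher, in osimertinib vs untreated 7 to 12 were lower and 1 to 2 higher, and in erlotinib vs osimertinib 4 to 10 were higher. The same genes stayed called without each library for 37 of 43 in untreated vs T0, 5 of 12 in erlotinib vs untreated, 5 of 14 in osimertinib vs untreated and 2 of 10 in erlotinib vs osimertinib. PSMG3 and PSMG4 in erlotinib vs untreated, and PSMD2 and PSMA6 in osimertinib vs untreated, kept the call in every setting that tested them.

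Same-numbered libraries showed no shared deviation, with correlations of -0.006 to 0.014 over genes. This does not settle whether they came from the same infection. A replicate block gave 1 higher in osimertinib vs untreated and 9 higher in erlotinib vs osimertinib, and changed no other count.

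With 2 libraries a group and medians of 129 to 159 reads per constitutive guide at the endpoint, small differences between conditions could not be resolved.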

Other observations

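Read depth at T0 differed between essential complexes whose later change was alike. The 124 guides against constitutive proteasome subunits had a median of 226 and 238 reads per guide in the T0 libraries, beside a median L2FC of -0.64 in untreated vs T0. Guides against the CCT chaperonin, which folds actin and tubulin, had 240.5 and 283.5 reads and a median L2FC of -0.76. Guides against the cytosolic ribosome had 308 and 327 reads and a median L2FC of -0.79. Guides against the COP9 signalosome, which removes NEDD8 from cullin ligases, had 551.5 and 561 reads, and a median L2FC of -0.74. The COP9 signalosome thus had about the T0 depth of all targeting guides (518 and 549 reads) and of non-targeting guides (543 and 592 reads), while the other complexes stood below both. Among the proteasome genes, core assembly chaperones had 633.5 and 738.5 reads at T0 and a median L2FC of -0.52, against 196 and 206 reads and -0.80 for the alpha ring.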
